A study of Mus musculus with 28 samples.

Results

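The transcripts described here are those of 9 genes that govern how T cells reach, stay in and leave the gut: the chemokine receptors Ccr9, Cxcr6, Ccr2 and Cxcr4, the G protein-coupled receptors Gpr15 and Gpr183, the integrin chains Itga4 and Itgb7, and the selectin ligand Selplg. They were chosen by name for that function, with earlier results of these data known, and are 9 of the 25124 genes in the table. All 9 passed the filter of at least 1 TPM in at least 6 libraries, as did 12182 genes in all. TPM is a gene's share of the reads of a library after division by its length.

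Live cells of mouse small intestinal lamina propria were sorted as CD45+ CD90.2+ TCRb+ CD4+, that is CD4 T cells, and RNA was sequenced in 28 libraries. All mice in all groups carried the T-bet-ZsGreen reporter, which reports a transcription factor of T helper 1 cells; age, dose and the interval from injection to sampling were not used here. Mice were specific-pathogen-free (SPF), and so had a gut flora, or germ-free (GF), and received an antibody against CD3 (aCD3), the signalling part of the T cell receptor, or an isotype control antibody. Of the 4 groups, both SPF groups held 6 libraries, 3 of females and 3 of males each. GF isotype held 10, with 5 of each sex, and GF aCD3 held 6, of which 5 were male and 1 female. A library's name joins its sex and its number (F1, M3). Nothing in the labels says that a library is 1 animal, so p-values measure the spread between libraries.

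Entry of T cells into the gut wall takes place in steps. PSGL-1, the product of Selplg, binds selectins and lets cells roll on vessel walls, chemokine receptors then sense ligands on the endothelium, and the integrin α4β7, built from Itga4 and Itgb7, binds MAdCAM-1 on gut venules and arrests the cell. CCR9 responds to CCL25 made by the small intestinal epithelium, and retinoic acid from gut dendritic cells induces CCR9 and α4β7 during T cell priming. CXCR6 binds CXCL16 and is typical of tissue-resident cells, CCR2 binds CCL2 and is best known for recruitment to inflamed tissue, CXCR4 binds CXCL12, GPR15 guides T cells mainly to the large intestine, and GPR183 (EBI2) senses oxysterols and positions lymphocytes within lymphoid structures.

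The 9 genes lie on 7 chromosomes of the build mm10. Ccr9 (NM_009913, chr9:123767211-123783457, plus strand), Cxcr6 (NM_030712, chr9:123806477-123811754, plus strand) and Ccr2 (NM_009915, chr9:124102183-124109140, plus strand) share 341.9 kb of chromosome 9. Cxcr4 (NM_001356509) is at chr1:128588199-128592299 on the minus strand, Itga4 (NM_010576) at chr2:79255426-79333114 on the plus strand, and Selplg (NM_009151) at chr5:113817798-113830501 on the minus strand. Gpr183 (NM_183031) is at chr14:121952331-121965193, Itgb7 (NM_013566) at chr15:102215995-102231935 and Gpr15 (NM_001162955) at chr16:58716643-58718872, all on the minus strand.

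Upstream sequences were matched by symbol for 8 of the 9 genes. The 250 bases before the start are shown for Cxcr4 and Gpr183, which had the largest changes up and down after aCD3 in SPF mice, and for both chains of α4β7. They are RefSeq sequences of GRCm38.p6, 5′ to 3′ on the strand of the gene. Capitals mark matches, on either strand, to a TATA box (TATAAA), a KLF-type motif (CCACCC), a RUNX-type motif (TGTGGT), an AP-1-type motif (TGANTCA) or a nuclear receptor half-site (AGGTCA).
Cxcr4, chr1:128592300-128592549, minus strand: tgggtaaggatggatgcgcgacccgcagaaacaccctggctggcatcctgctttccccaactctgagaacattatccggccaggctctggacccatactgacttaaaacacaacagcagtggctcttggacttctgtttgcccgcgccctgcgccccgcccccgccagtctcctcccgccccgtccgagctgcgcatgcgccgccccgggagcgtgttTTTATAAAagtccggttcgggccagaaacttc
Gpr183, chr14:121965194-121965443, minus strand: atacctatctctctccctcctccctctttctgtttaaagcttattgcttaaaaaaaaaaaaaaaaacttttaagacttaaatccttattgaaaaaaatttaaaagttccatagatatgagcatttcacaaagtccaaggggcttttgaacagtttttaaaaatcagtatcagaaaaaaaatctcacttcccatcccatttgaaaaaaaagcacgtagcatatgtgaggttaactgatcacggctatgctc
Itga4, chr2:79255176-79255425, plus strand: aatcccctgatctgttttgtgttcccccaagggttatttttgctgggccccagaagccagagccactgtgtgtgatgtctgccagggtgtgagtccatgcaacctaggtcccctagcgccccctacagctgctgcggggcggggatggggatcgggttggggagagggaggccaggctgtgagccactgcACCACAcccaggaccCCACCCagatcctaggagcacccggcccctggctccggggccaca
Itgb7, chr15:102231936-102232185, minus strand: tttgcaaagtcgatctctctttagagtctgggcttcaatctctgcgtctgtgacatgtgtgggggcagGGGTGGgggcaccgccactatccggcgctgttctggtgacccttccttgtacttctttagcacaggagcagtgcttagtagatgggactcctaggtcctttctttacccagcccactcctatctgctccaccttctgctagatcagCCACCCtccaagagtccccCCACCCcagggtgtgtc
In Cxcr4 the capitals hold TATAAA from position -30 and, on the other strand, an overlapping match from -32, counted from the base before the start. Of 32817 upstream sequences of this length in the table, 12.4% held TATAAA. The Gpr183 stretch held none of the 5 motifs and was 32% G or C, against 61.2% in Cxcr4. The Itga4 stretch held 1 KLF-type match at -45 and 1 RUNX-type match at -60, and that of Itgb7 held 3 KLF-type matches at -182, -36 and -17. Among all upstream sequences 28.1% held the KLF-type motif, 14.04% the RUNX-type motif, 14.03% the half-site and 6.75% the AP-1-type motif. None of the 8 matched genes, Ccr9 and both α4β7 chains included, held the half-site AGGTCA in this window, and the AP-1-type motif was found only in Gpr15.

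Reads recovered per library ran from 6765532 to 17860600. The sorted cells carried the markers of their gate: all 10 CD4 T cell markers had a mean of at least 1 TPM in each of the 4 groups, and their summed level ran from 1928 to 2571 TPM. Both GF groups came from separate runs of sample numbers, 25 to 33 (6 isotype and 3 aCD3 libraries, called the earlier run) and 48 to 54 (4 isotype and 3 aCD3 libraries, the later run), while SPF libraries carry the numbers 1 to 12. Earlier and later refer to these numbers only: the labels name no run and give no order in time. What a run stands for is not known, and it cannot be told apart from the flora. Libraries of GF aCD3 were not alike: Lag3, an inhibitory receptor induced by T cell receptor signals, was at 498, 452 and 527 TPM in M1, M2 and M5, and at 9.59, 17.0 and 12.3 TPM in F1, M3 and M4, against 5.41 to 18.5 TPM in GF isotype and 505 to 825 TPM in SPF aCD3. The labels place all 6 in GF aCD3; whether F1, M3 and M4 had a dose like the others or carry a wrong label cannot be told apart here, and each difference between GF aCD3 and another group rests on all 6. TPM is a share, and the median of all tested genes moved between groups: by -0.35 (log2) after aCD3 in SPF, by -0.15 after aCD3 in GF, by 0.15 in GF against SPF isotype, and by 0.34 in GF against SPF aCD3. Changes of the 9 genes between groups are therefore also given after scaling by median of ratios, which takes that shift out, where it alters a call or direction.

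In SPF mice, aCD3 was followed by more Cxcr4 and less Gpr183 and Ccr9. Cxcr4 was 2.80 times as high by the group means, Gpr183 was lower by 59.3% and Ccr9 by 46.3%. Cxcr6 was lower by 19.1%, a fall that was not seen after scaling. By limma on log2(TPM + 1) with Benjamini-Hochberg adjustment, 4 of the 9 genes passed 0.05, 1 higher and 3 lower, where 64.8% of all tested genes passed, 14.2% higher and 50.7% lower. After scaling 6 of 9 passed, 4 higher and 2 lower, against 60.0% of all genes. After scaling 30.2% of all genes were higher and 29.8% lower. A share of 4 or 6 in 9 is near that background. The median of the 9 was -0.31, and that of all genes -0.35.

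Cxcr4 had a median of 141 TPM in SPF isotype (114 to 185) and of 398 TPM in SPF aCD3 (312 to 476). Every aCD3 library was above every isotype library. The log2 fold change was 1.48 (SE 0.41, adjusted p = 0.00316), and 1.89 after scaling (adjusted p = 0.00114). Within SPF aCD3 the 3 female libraries were at 473, 476 and 446 TPM and the 3 male libraries at 312, 323 and 351 TPM, so the sexes did not overlap. In that group the sexes also did not overlap for Gpr183 (44.6 to 48.2 TPM in females, 31.9 to 38.9 in males), Itga4, Itgb7 and Selplg, the last 3 higher in males. For Cxcr4 that difference between males and females was -0.50 (SE 0.07) and missed the threshold over all genes (limma adjusted p = 0.101). The others missed it too, with limma adjusted p of 0.187 (Gpr183), 0.272 (Itga4), 0.252 (Itgb7) and 0.249 (Selplg). How many of all genes separate by sex in this way was not counted. In SPF isotype Gpr183 was instead higher in males, without overlap (105 to 115 against 76.7 to 103 TPM). In GF isotype Selplg was lower in males, without overlap (204 to 240 against 246 to 300 TPM).

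Gpr183 ran from 76.7 to 115 TPM in SPF isotype (median 104) and from 31.9 to 48.2 TPM in SPF aCD3 (median 41.7). The groups did not overlap. Its log2 fold change was -1.28 (SE 0.21, adjusted p = 2.36e-05), and -0.88 after scaling (adjusted p = 7e-05). Gpr183 lies inside Ubac2 (chr14:121878606-122021035), which is read from the other strand and has 0 exons within it. Whether strand was used in counting is not given in the sources used here, and Ubac2 had 2.98 to 6.18 times as many reads as Gpr183 per library. At the read density of Ubac2, 19.6% to 51.4% of the reads of Gpr183 would belong to Ubac2. With those reads taken away the fold change was -1.44 (adjusted p = 4.2e-05).

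Ccr9, the receptor for the small intestinal chemokine CCL25, was the most abundant of the 9 per length in SPF isotype, with a median of 528 TPM (386 to 628). In SPF aCD3 the median was 279 TPM (256 to 324), and no library reached the lowest isotype library. The log2 fold change was -0.88 (SE 0.19, adjusted p = 0.000351), and -0.47 after scaling (adjusted p = 0.00677). Length here is the genomic span, introns included, in 99.24% of rows, so this order among genes holds only for TPM per span. Cxcr4 and Ccr9 moved in opposite directions, and the ratio of their TPM, Cxcr4 over Ccr9, was 0.283 ± 0.111 (SD, n = 6) in SPF isotype and 1.41 ± 0.343 (n = 6) in SPF aCD3.

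Cxcr6 ran from 321 to 387 TPM in SPF isotype (median 359) and from 276 to 316 TPM in SPF aCD3 (median 280). The groups did not overlap in TPM, and the log2 fold change was -0.31 (SE 0.13, adjusted p = 0.0418). After scaling it was 0.11 (adjusted p = 0.452), so the direction depended on scaling. Leaving out 1 library raised the adjusted p to at most 0.0764, above the threshold in 9 of 12 cases (SPF isotype F1, F2, F3, M1 and M2, and SPF aCD3 F1, M1, M2 and M3). Cxcr6 lies inside Fyco1 (chr9:123789500-123851899), on the other strand and with 0 Fyco1 exons within it. Fyco1 had 1.19 to 1.51 times as many reads as Cxcr6, and at its density 1.78% to 4.68% of Cxcr6 reads would be its own. Taking them away gave -0.28 (adjusted p = 0.0626).

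Ccr2 and Gpr15 did not pass in SPF mice with all groups in the fit. Ccr2, the CCL2 receptor, was at 80.5 to 99.4 TPM in SPF isotype and 53.1 to 82.0 TPM in SPF aCD3, with 5 of 6 aCD3 libraries below all isotype libraries (log2 fold change -0.43, 95% interval -0.85 to 0.00, adjusted p = 0.0742). It passed with only the groups compared (adjusted p = 0.00175), with array weights (-0.51, adjusted p = 0.0304) and without SPF aCD3 M1 (-0.52, adjusted p = 0.035), while after scaling the value was -0.02. Gpr15 was the scarcest of the 9 per length, at 6.89 to 26.4 TPM in SPF isotype and 8.28 to 19.8 TPM in SPF aCD3. Those ranges overlapped throughout (log2 fold change -0.35, 95% interval -0.95 to 0.25; 0.03 after scaling).

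The α4β7 chains and Selplg did not pass in TPM. Itga4 ran from 28.2 to 44.4 TPM in SPF isotype and from 30.0 to 40.7 TPM in SPF aCD3 (log2 fold change -0.07, 95% interval -0.34 to 0.19). Itgb7 was at 87.6 to 110 TPM and 92.5 to 122 TPM (0.14, interval -0.11 to 0.39), and Selplg at 172 to 229 TPM and 180 to 247 TPM (0.00, interval -0.24 to 0.23). Since most genes lost share, scaling placed all 3 higher after aCD3, Itgb7 by 0.55 (adjusted p = 0.000159; also called with array weights, 0.21, adjusted p = 0.0418, and with quantile normalization, 0.28, adjusted p = 0.0328), Selplg by 0.41 (adjusted p = 0.000226) and Itga4 by 0.33 (adjusted p = 0.00187). The ratio of Itga4 to Itgb7, which does not depend on scaling, was 0.396 ± 0.0722 (SD, n = 6) in SPF isotype and 0.337 ± 0.0351 (n = 6) in SPF aCD3, with overlapping ranges.

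Of the other partner chains of α4 and β7, Itgb1 passed and Itgae did not. Itgb1, which pairs with α4 to bind VCAM-1, fell from 14.6 ± 1.47 TPM (SD, n = 6) to 5.85 ± 0.710 TPM (n = 6) after aCD3 in SPF (log2 fold change -1.19, SE 0.18, adjusted p = 1.23e-05; scaled -0.83). The ratio of Itga4 to Itgb1 was 2.69 ± 0.398 in SPF isotype and 6.44 ± 1.49 in SPF aCD3. Itgae, whose chain pairs with β7 to hold cells at the epithelium through E-cadherin, was at 20.1 ± 4.62 and 12.6 ± 5.04 TPM and did not pass (-0.69, SE 0.32, adjusted p = 0.0588; scaled -0.31, adjusted p = 0.404). Itgb1 and Itgae were singled out after their values were seen.

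**Figure D1:**
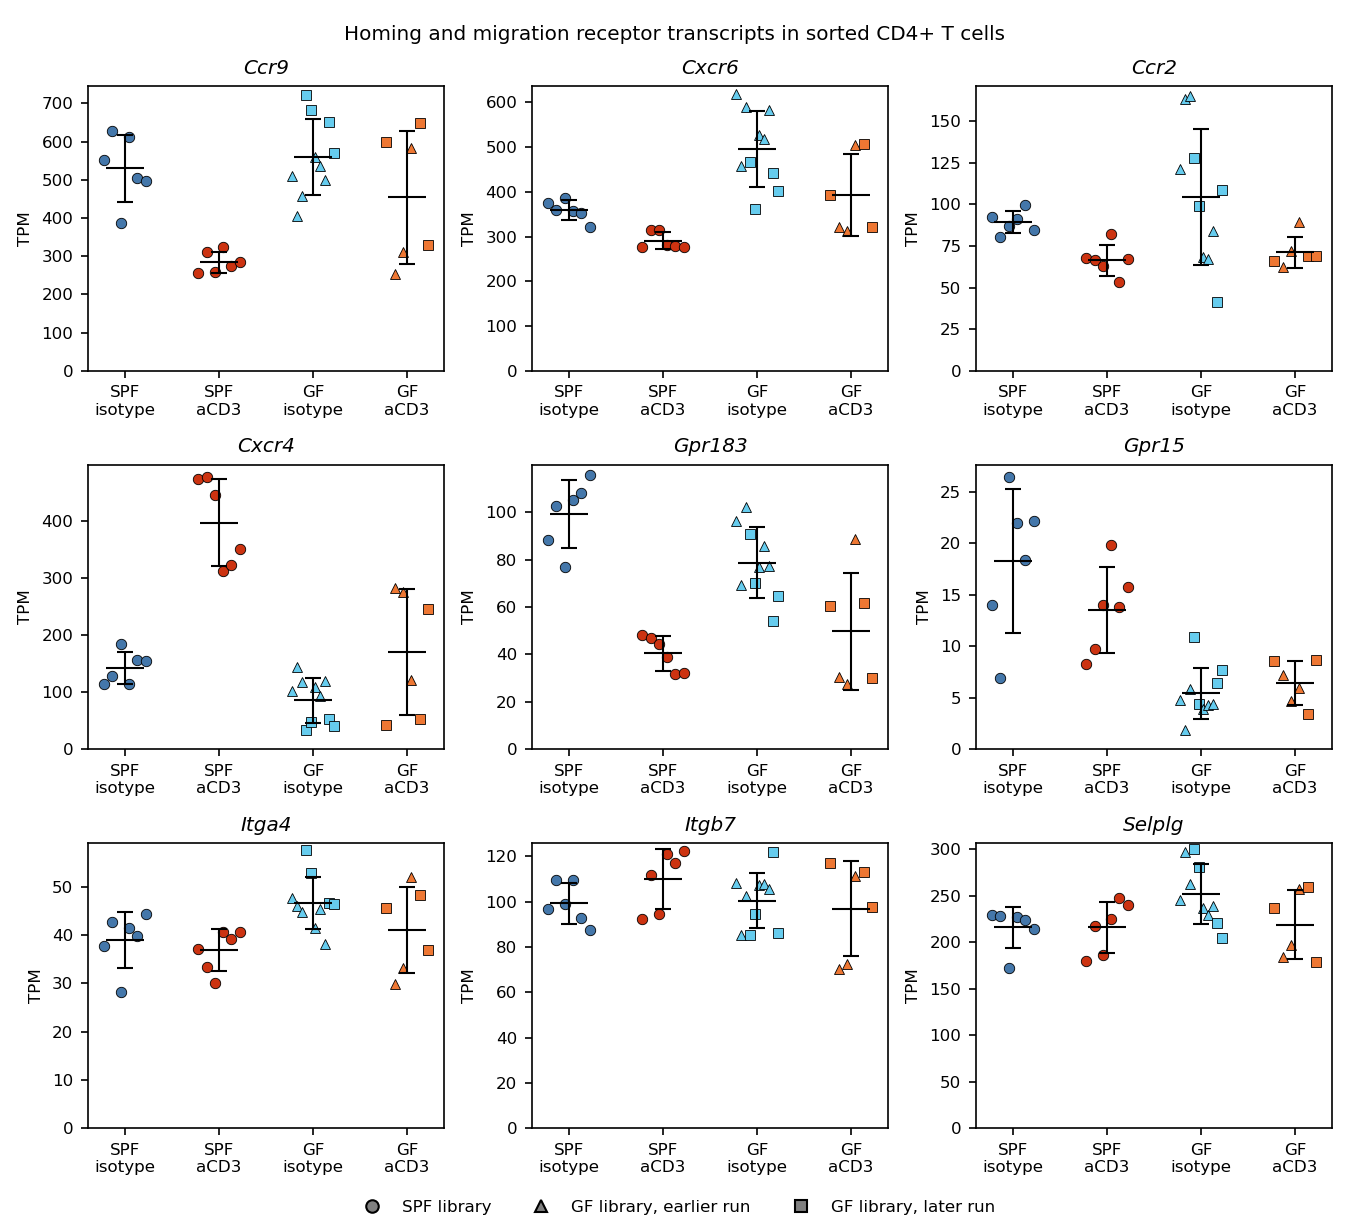
TPM of each receptor gene (y axis, from 0) in each library, by group (x axis); points are libraries, shaped by run, and the bar and whiskers are the mean and SD. Cxcr4 in SPF aCD3 lies between 312 and 476 TPM, above all other SPF libraries, while GF aCD3 libraries spread from 42.3 to 282 TPM; Gpr15 is lower in both GF groups.

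Markers of other cell types and of cell state also differed between the SPF groups. Summed TPM of 11 B and plasma cell markers ran from 97.3 to 278 in SPF isotype and from 3.46 to 11.7 in SPF aCD3, led by Jchain, while Ms4a1 and Pax5 had means under 1 TPM in both groups. The sum of 14 myeloid markers ran from 6.13 to 14.4 TPM in SPF isotype and from 57.9 to 149 TPM in SPF aCD3. In the latter group Cd68 ran from 54.4 to 106 TPM. S100a8 and S100a9 were at 0 in SPF isotype and had medians of 0 in SPF aCD3, but reached 65.5 and 25.6 TPM there. Lyz2, Csf1r and Adgre1 were under 1 TPM on average in both groups. Stromal and endothelial markers, 12 in number, summed to 15.3 to 51.6 TPM in SPF isotype and 3.31 to 6.39 TPM in SPF aCD3. Epithelial markers (12) summed to 8.78 to 17.9 and 5.03 to 9.94 TPM, and mast cell and innate lymphoid markers (11) to 37.0 to 49.9 and 14.5 to 25.3 TPM. In that last list Mcpt1, Mcpt2, Fcer1a and Ms4a2 were at 0 in both SPF groups, and Cpa3 was under 1 TPM on average. By group means Klrb1c fell from 21.5 to 2.55 TPM, while Kit rose from 1.04 to 4.59 TPM. Cd8a and Cd8b1 together were at 5.68 to 13.5 and 9.75 to 23.8 TPM. The summed level of 10 proliferation genes ran from 94.3 to 210 TPM in SPF isotype and from 838 to 987 TPM in SPF aCD3, and all 10 passed the test as higher. Regulatory T cell markers summed to 136 to 172 TPM in SPF isotype and 235 to 300 TPM in SPF aCD3, with 4 of 6 tested higher. T helper 1 markers summed to 948 to 1214 and 834 to 991 TPM, and 8 of 8 passed, 2 higher and 6 lower (2 and 3 after scaling). Of all tested genes 64.8% passed, 14.2% higher and 50.7% lower, and 60.0% after scaling. T helper 17 markers summed to 172 to 238 TPM in SPF isotype and 140 to 626 TPM in SPF aCD3, with 4 of 8 passing, 2 in each direction, and the cytokine gene Il17a was at 59.8 ± 11.96 and 340 ± 159 TPM (SD, n = 6 in each). The part of these cells and states in the receptor changes was not tested, and in bulk samples fewer cells of a type and less RNA per cell cannot be told apart.

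In GF mice, Gpr183 was the single gene of the 9 to pass after aCD3, and it was lower. The log2 fold change was -0.70 (SE 0.20, adjusted p = 0.0481), and -0.54 after scaling (adjusted p = 0.0411). That is 1 of 9, lower, where 7.08% of all tested genes passed, 2.46% higher and 4.61% lower, and 9.65% after scaling, 5.62% higher and 4.02% lower. Its call rests on a value next to the threshold: it was lost on leaving out any of the 10 GF isotype libraries or GF aCD3 M1, M2 or M5, with fold changes from -0.76 to -0.58 and adjusted p up to 0.179 in those cases. With the reads expected from Ubac2 taken away the fold change was -0.80 (adjusted p = 0.0484).

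Libraries of GF aCD3 differed among themselves. Gpr183 was at 30.5, 27.5 and 29.9 TPM in M1, M2 and M5, and at 60.5, 88.7 and 61.9 TPM in F1, M3 and M4, beside 54.3 to 102 TPM in GF isotype. The first 3 libraries were below all GF isotype libraries, and the others were within their range. Cxcr4 was at 282, 276 and 247 TPM in M1, M2 and M5, and at 42.3, 122 and 54.02 TPM in F1, M3 and M4, beside 33.99 to 145 TPM in GF isotype (median 97.6). Here M1, M2 and M5 were above every GF isotype library, and they are the libraries with high Lag3. Ccr9 was at 252, 311 and 330 TPM in M1, M2 and M5, and at 599, 584 and 648 TPM in F1, M3 and M4, beside 405 to 722 TPM in GF isotype. Cxcr6 was at 320, 312 and 322 TPM in M1, M2 and M5, and at 393, 504 and 508 TPM in F1, M3 and M4, beside 362 to 619 TPM in GF isotype.

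Over all 6 GF aCD3 libraries the differences in Cxcr4, Ccr9 and Cxcr6 did not pass. The log2 fold change was 0.73 (SE 0.38, adjusted p = 0.166) for Cxcr4, -0.37 (SE 0.18, adjusted p = 0.137) for Ccr9 and -0.33 (SE 0.12, adjusted p = 0.0686) for Cxcr6. Without GF aCD3 F1, Cxcr4 (1.17, adjusted p = 0.024) and Ccr9 (-0.51, adjusted p = 0.0446) passed, and without M4 both passed as did Cxcr6 (0.98, -0.49 and -0.41). Without M3, Cxcr6 passed (-0.40). Summed proliferation genes ran from 131 to 1172 TPM in GF aCD3 and from 89.0 to 309 TPM in GF isotype, and Cd68 from 8.33 to 58.0 and from 3.29 to 18.4 TPM; their part in these results was not tested. Within the earlier run Cxcr4 gave 0.98 and within the later run 0.82, Gpr183 gave -0.90 and -0.43, Ccr9 -0.57 and -0.33, and Cxcr6 -0.55 and -0.06, and 0 of the 9 passed by limma in either run alone. With the run as a term of the fit, Cxcr4 (0.90, adjusted p = 0.0295) and Gpr183 (-0.69, adjusted p = 0.0296) passed. High Lag3 was seen in M1 and M2 of the earlier run and in M5 alone of the later. The values per run therefore also carry that uneven split.

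The remaining 5 genes did not pass after aCD3 in GF mice. Ccr2 had a median of 104 TPM in GF isotype (41.4 to 165) and of 68.9 TPM in GF aCD3 (62.1 to 89.3), with a log2 fold change of -0.34 (95% interval -0.74 to 0.05). Gpr15 was at 1.84 to 10.9 TPM in GF isotype and 3.42 to 8.69 TPM in GF aCD3 (0.16, interval -0.39 to 0.72). Itga4 gave -0.21 (interval -0.45 to 0.03), Itgb7 -0.09 (-0.32 to 0.14; 0.08 after scaling) and Selplg -0.19 (-0.41 to 0.03). In GF aCD3 the lowest Itga4 values were again in M1 and M2, at 29.9 and 33.2 TPM.

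**Figure D2:**
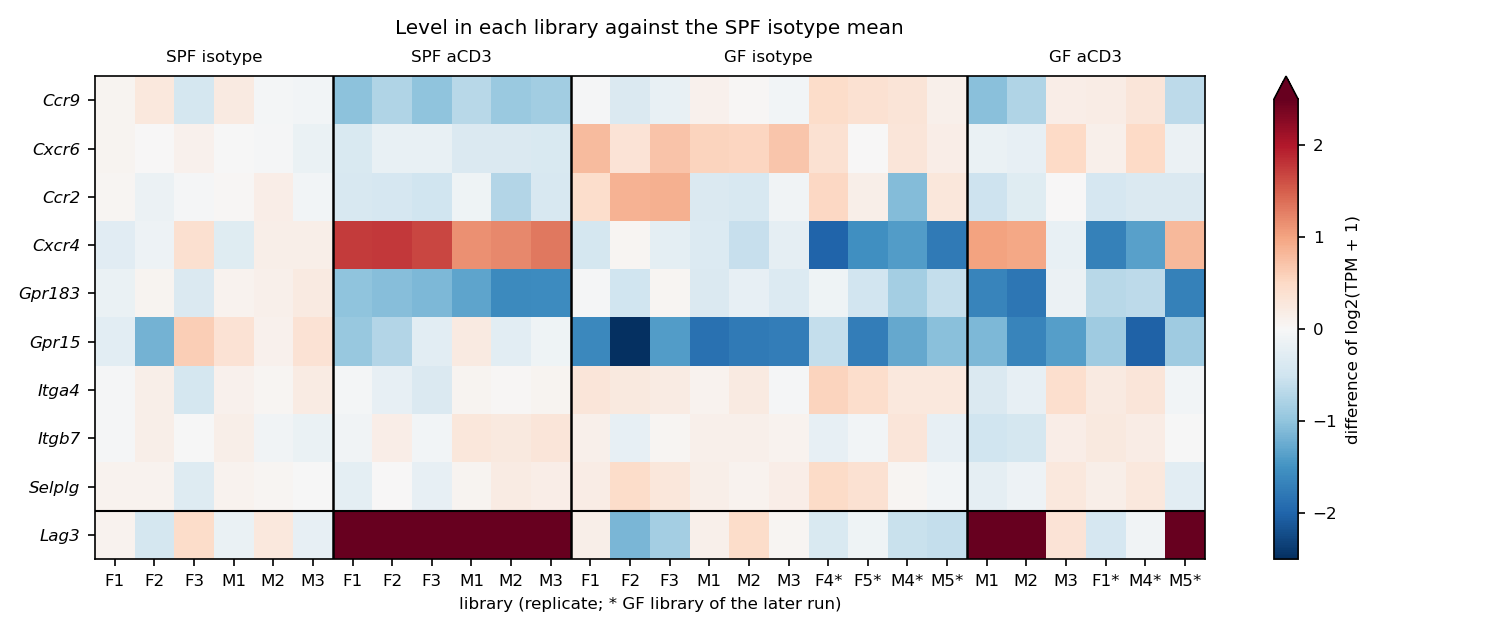
Difference of log2(TPM + 1) from the SPF isotype mean (colour; scale ends at 2.5) for the 9 genes and Lag3 (rows) in 28 libraries (columns, by group and run). In GF aCD3, M1, M2 and M5 show high Lag3 and Cxcr4 with low Gpr183 and Ccr9, while F1, M3 and M4 do not.

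Whether the response to aCD3 differed between GF and SPF mice was tested as an interaction, with the libraries labelled GF aCD3 that had low Lag3 (F1, M3 and M4) kept in. By limma 0 of the 9 genes passed, none had an unadjusted p under 0.05, and 3.48% of all tested genes passed. The closest were Gpr183 (0.58, SE 0.29, adjusted p = 0.168) and Ccr9 (0.51, SE 0.26, adjusted p = 0.176), both with a smaller fall in GF, and for Cxcr4 the difference was -0.74 (95% interval -1.90 to 0.41). Ccr2 gave 0.08, or -0.16 after scaling. After scaling 3 of 9 passed, against 11.3% of genes, all with a lower response in GF: Itgb7 (-0.48, adjusted p = 0.0449), Selplg (-0.44, adjusted p = 0.0251) and Itga4 (-0.37, adjusted p = 0.0428).

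In control mice the clearest difference between GF and SPF was in Gpr15. GF isotype libraries had a median of 4.63 TPM (1.84 to 10.9) and SPF isotype libraries one of 20.2 TPM (6.89 to 26.4), and 8 of 10 GF libraries lay below all SPF libraries. The log2 fold change was -1.57 (SE 0.26, adjusted p = 0.000847), or 70.2% lower by the means. Gpr15 was read at 7 to 113 reads per library, so single values carry much counting error. The difference was -1.84 (adjusted p = 0.000314) with the earlier GF run alone and -1.16 (adjusted p = 0.076) with the later run alone. Among 8 T helper 17 genes, 5 were lower in GF isotype, beside 0.755% of all genes, and their summed level was 54.04 to 175 TPM in GF isotype against 172 to 238 TPM in SPF isotype; the part of that subset in Gpr15 was not tested. Stromal and endothelial markers summed to 7.85 to 14.4 TPM in GF isotype against 15.3 to 51.6 TPM in SPF isotype, and B and plasma cell markers to 11.5 to 120 against 97.3 to 278 TPM, and their part was not tested either.

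Cxcr6 was higher in GF isotype, at a median of 492.7 TPM (362 to 619) against 359 TPM (321 to 387) in SPF isotype, with 9 of 10 GF libraries above all SPF libraries (log2 fold change 0.45, SE 0.12, adjusted p = 0.0201). After scaling it was 0.29 (adjusted p = 0.212), and with the later run alone 0.21 (adjusted p = 0.269). Gpr15 and Cxcr6 make 2 of 9 called, 1 in each direction, where 7.17% of tested genes passed, 6.42% higher and 0.755% lower in GF, and 1.67% after scaling (0.517% higher, 1.16% lower), when Gpr15 alone of the 9 passed. Cxcr4 was lower in GF isotype by 39.3% in the means but did not pass (-0.85, SE 0.37, adjusted p = 0.152). The others gave -0.34 (Gpr183), 0.26 (Itga4), 0.22 (Selplg), 0.12 (Ccr2), 0.08 (Ccr9) and 0.01 (Itgb7), and none of them passed. After scaling the last 3 turned to -0.04, -0.09 and -0.15, again with no call. With array weights Gpr183 passed as lower (-0.43, adjusted p = 0.0348).

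Cxcr4 in the GF isotype group followed the run. The 6 libraries of the earlier run were at 92.9 to 145 TPM and the 4 of the later run at 33.99 to 52.5 TPM, without overlap. In a comparison added after seeing the data, the later run was lower by limma (-1.38, SE 0.15, adjusted p = 0.00165), and Ccr9 was higher (0.41, SE 0.10, adjusted p = 0.0386) and Cxcr6 lower (-0.39, SE 0.10, adjusted p = 0.0451) in it; these are 3 of 9, where 10.3% of all genes passed. Against SPF isotype, Cxcr4 gave -0.30 (adjusted p = 0.31) with the earlier run alone and -1.68 (adjusted p = 0.0261) with the later run alone. The call for Cxcr4 between GF and SPF isotype mice thus changed with the run.

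Under aCD3, 4 of the 9 genes passed between GF and SPF libraries, 2 of them higher in GF, with F1, M3 and M4 again kept in as labelled, where 53.3% of tested genes passed, 48.9% higher and 4.46% lower. Cxcr4 was lower in GF aCD3, with every GF library below every SPF library (-1.59, SE 0.42, adjusted p = 0.0038; 57.0% lower by the means; with array weights -1.20, adjusted p = 0.0504). Gpr15 was lower too, with 4 of 6 GF libraries below all SPF libraries (-1.05, SE 0.30, adjusted p = 0.00584). Ccr9 (0.59, SE 0.20, adjusted p = 0.0159) and Cxcr6 (0.43, SE 0.13, adjusted p = 0.0101) were higher in GF, with 4 and 5 of 6 GF libraries above all SPF libraries.

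Scaling changed that picture for the 2 higher genes, which came to 0.18 for Ccr9 and 0.02 for Cxcr6 and no longer passed. After it 5 of 9 passed, all lower in GF, against 32.7% of genes, 16.0% higher and 16.7% lower: Cxcr4 (-1.999), Gpr15 (-1.43), Itgb7 (-0.62), Selplg (-0.38) and Itga4 (-0.28). Ccr2 (0.20) and Gpr183 (0.24) turned to -0.20 and -0.16, with no call either way. With the earlier GF run alone Cxcr4 gave -0.77 (adjusted p = 0.0236) and with the later run alone -2.24 (adjusted p = 0.00184). Ccr9 gave 0.27 (adjusted p = 0.305) and 0.84 (adjusted p = 0.00346), and it lost its call without GF aCD3 F1 (0.45, adjusted p = 0.0827) or without M4 (0.47). The aCD3 libraries with low Lag3 were M3 in the earlier run and F1 and M4 in the later. Run and Lag3 level were not separated in these values. Before scaling 53.3% of all tested genes passed here, 48.9% higher and 4.46% lower. T helper 17 markers summed to 69.0 to 214 TPM in GF aCD3 against 140 to 626 TPM in SPF aCD3, with 6 of 8 called, 1 higher and 5 lower (1 and 7 after scaling). Proliferation genes summed to 131 to 1172 against 838 to 987 TPM, with 7 of 10 lower (9 after scaling), myeloid markers to 10.2 to 69.6 against 57.9 to 149 TPM, and B and plasma cell markers to 8.87 to 103 against 3.46 to 11.7 TPM. Their part in these differences was not tested. These comparisons share groups: each SPF and GF group enters 2 of them.

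**Figure D3:**
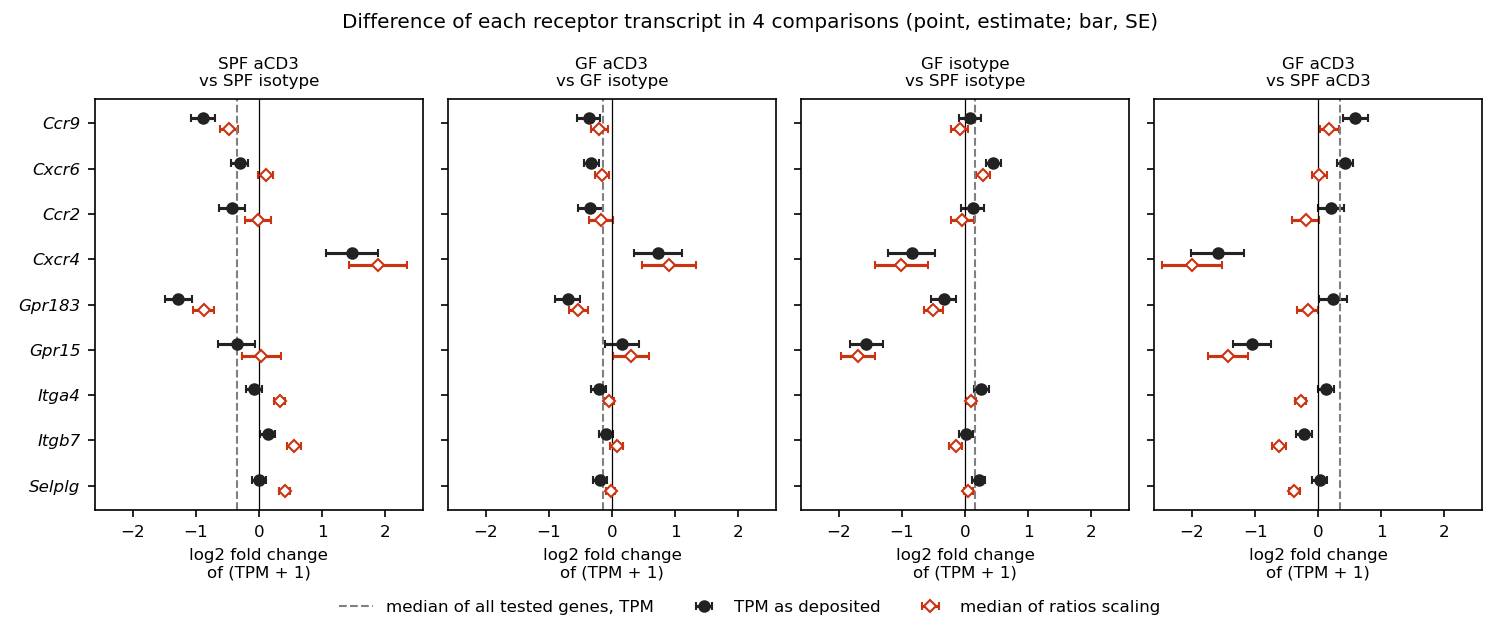
Log2 fold change of TPM + 1 (x axis) for each gene (rows) in 4 comparisons (panels); black points are TPM as deposited, red points are after scaling by median of ratios, bars are SE, and the dashed line is the median of all tested genes. Cxcr4 (1.48) and Gpr183 (-1.28) lie outside the dashed line on opposite sides after aCD3 in SPF, and Gpr15 stands apart in GF isotype against SPF isotype (-1.57).

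The order of the 4 groups differed from gene to gene. Ccr9 and Ccr2 were highest by mean TPM in GF isotype, then SPF isotype, GF aCD3 and SPF aCD3; for Ccr9 that was 560 ± 101 (SD, n = 10), 530 ± 88.6 (n = 6), 454 ± 174 (n = 6) and 285 ± 27.6 (n = 6), and every pair of neighbours overlapped. For Ccr2 it was 105 ± 40.9, 89.2 ± 6.57, 71.2 ± 9.44 and 66.5 ± 9.33, and every pair of neighbours overlapped. Cxcr6 went from 497 ± 85.1 in GF isotype through 393 ± 92.0 in GF aCD3 and 359 ± 22.5 in SPF isotype to 290 ± 19.3 in SPF aCD3, with only the last pair of neighbours apart. Cxcr4 went from 397 ± 76.6 in SPF aCD3 to 170 ± 111 in GF aCD3, 142 ± 28.04 in SPF isotype and 86.2 ± 39.3 in GF isotype, and the first step was the one without overlap. Gpr183 went from 99.3 ± 14.3 in SPF isotype through 78.8 ± 15.0 in GF isotype and 49.8 ± 24.7 in GF aCD3 to 40.4 ± 7.21 in SPF aCD3, with all neighbours overlapping. Gpr15 was ordered by flora, 18.3 ± 6.96 and 13.6 ± 4.17 in SPF isotype and aCD3, 6.43 ± 2.14 and 5.45 ± 2.48 in GF aCD3 and isotype. Itga4, Itgb7 and Selplg spanned group means of 36.9 to 46.7, 96.9 to 110 and 216 to 252 TPM, and every pair of neighbours overlapped.

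Sex was also compared, with 0 of the 9 genes called by limma between males and females over all groups, 1 with an unadjusted p under 0.05 (Ccr2), 0 by voom on recovered reads, and 0.107% of all tested genes called. Ccr2 gave -0.32 in males against females (SE 0.14, adjusted p = 1). Most of its spread was in GF isotype, where the 5 female libraries ran from 98.7 to 165 TPM and the 5 male libraries from 41.4 to 109 TPM. There the difference was -0.90 (SE 0.24, adjusted p = 0.159), while SPF isotype females (80.5 to 92.3 TPM) and males (84.8 to 99.4 TPM) overlapped.

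The 3 chromosome 9 receptors belong to a stretch of 8 genes from Ccr9 to Ccr2, of which 7 were tested. Its members did not move as a block after aCD3 in SPF mice, where 64.8% of all tested genes passed. Ccr1 rose (1.96, SE 0.39, adjusted p = 0.00012), from 3.22 ± 1.04 to 16.3 ± 6.94 TPM, and it stayed higher after scaling (2.34). Ccr9, Fyco1 and Cxcr6 fell in TPM, though after scaling Ccr9 alone of these 3 was lower past the threshold. Fyco1 spans Cxcr6 and had 1.19 to 1.51 times its reads. If strand was not used in counting, Cxcr6 reads may make up much of the Fyco1 count, so their falls are not separate observations. In GF mice none of the 7 passed after aCD3 by limma, with Ccr1 at 1.01 (adjusted p = 0.0639), where 7.08% of all tested genes passed.

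**Figure D4:**
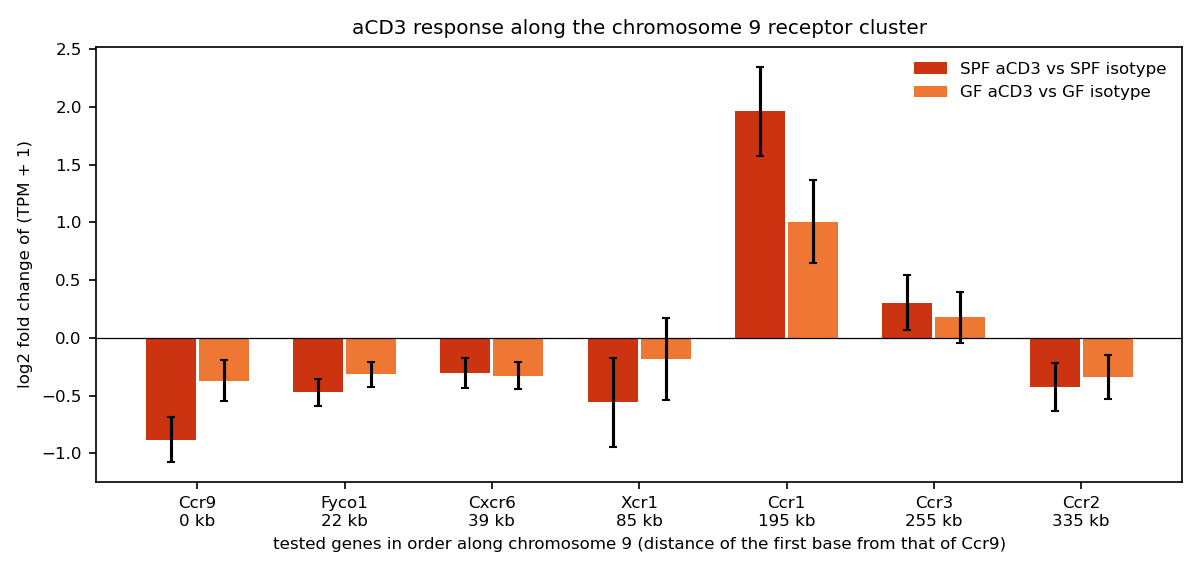
Log2 fold change of TPM + 1 after aCD3 (y axis; bars with SE) for the 7 tested genes from Ccr9 to Ccr2 on chromosome 9, in order along the chromosome (x axis, kb from the start of Ccr9), in SPF (red) and GF (orange) mice. Ccr1 (1.96) is the highest in SPF and Ccr9 (-0.88) the lowest. Fyco1 spans Cxcr6 and may share its reads.

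Among 16 other chemokine receptors, 13 were tested. Cx3cr1 and Ackr3 had fewer than 6 libraries at 1 TPM outside SPF aCD3, where they were higher, so they met the low-value filter through that group and are left out of its counts, here as in the lists that follow. Of the remaining 11, 7 passed after aCD3 in SPF mice, 5 higher and 2 lower, beside 14.2% of all genes higher and 50.7% lower. The median of the 11 was 0.30 and that of all genes -0.35. Ccr1 rose most, and Cxcr3, which guides T helper 1 cells, fell most, from 395 ± 47.7 TPM to 106 ± 16.9 TPM (-1.89, SE 0.29, adjusted p = 1.07e-05). In GF mice 2 of 13 passed, beside 7.08% of all genes: Ccr7, the lymph node homing receptor, was higher (1.51, SE 0.47, adjusted p = 0.0499) and Cxcr3 lower (-0.89, SE 0.27, adjusted p = 0.0488). Against SPF isotype, 4 of 13 were lower in GF isotype, beside 0.755% of all genes lower (1.16% after scaling), among them Ccr7 (2.45 ± 1.18 against 11.3 ± 4.56 TPM; -1.83) and Ccr6, a receptor of T helper 17 cells (3.37 ± 2.17 against 8.45 ± 2.33 TPM; -1.24). In GF against SPF aCD3, 6 of 11 passed, near the 53.3% of all genes, 3 higher and 3 lower (2 and 5 after scaling), led by Ccr1 (-1.97) and Ccr7 (-1.90).

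Of 14 tested receptors for other attractants, 9 passed after aCD3 in SPF, 3 higher and 6 lower (4 and 4 after scaling), which is near the 64.8% of all genes. In GF 4 of 13 passed, 1 higher and 3 lower, beside 7.08% of all genes, with Gpr25 left out because it met the filter through GF isotype. Gpr34, a receptor for lysophosphatidylserine, and Ptger4, a prostaglandin E2 receptor, fell in both: Gpr34 by -2.40 in SPF (67.5 ± 4.83 to 12.1 ± 2.59 TPM) and by -1.05 in GF, and Ptger4 by -2.35 in SPF (399 ± 42.0 to 77.8 ± 14.4 TPM) and by -0.99 in GF (adjusted p = 0.0481 and 0.0499 in GF). Under aCD3 6 were higher and 2 lower in GF than in SPF (3 and 4 after scaling), a share near the 53.3% of all genes, with Ptger4 higher (1.60) and Ltb4r1, a leukotriene B4 receptor, lower (-1.56).

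The egress list holds genes that keep T cells in tissue or let them leave. Of 13 tested, 10 passed after aCD3 in SPF, 4 higher and 6 lower (4 and 5 after scaling), beside 64.8% of all genes, and 3 in GF, 1 higher and 2 lower, beside 7.08%. Il7r fell from 378 ± 76.5 to 33.7 ± 8.43 TPM in SPF (-3.46, SE 0.59, adjusted p = 3.13e-05) and by -1.77 in GF (adjusted p = 0.0499). Cd69 and S1pr1, singled out after their values were seen, moved in opposite directions in SPF: Cd69, which holds cells back by binding S1PR1, fell from 665 ± 75.4 to 222 ± 7.15 TPM (-1.57, SE 0.20, adjusted p = 1.94e-06), and S1pr1, the exit receptor, rose from 34.3 ± 9.52 to 71.3 ± 17.6 TPM (1.04, SE 0.23, adjusted p = 0.000328). In GF, Cd69 fell by -0.69 (adjusted p = 0.0481) and S1pr1 gave -0.02 (SE 0.21, adjusted p = 0.949). Klf2, a factor that drives S1pr1, was lower in GF than in SPF in both isotype (171 ± 102 against 351 ± 57.3 TPM; -1.29, adjusted p = 0.0298) and aCD3 libraries (-1.38, adjusted p = 0.00793). Under aCD3, 8 of 13 egress genes differed between GF and SPF, 4 in each direction (0 higher and 6 lower after scaling), beside 53.3% of all genes (32.7% after scaling).

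The retinoic acid list, the pathway known to induce CCR9 and α4β7, held 18 genes of which 8 were tested. Crabp2, a carrier of retinoic acid, met the low-value filter only through aCD3 libraries, so its call is not counted. The other 7 passed as lower after aCD3 in SPF, and 6 of them after scaling. Of all genes 64.8% passed, 50.7% lower, and after scaling 60.0%, 29.8% lower. Rara, the receptor, fell from 30.5 ± 7.60 to 11.4 ± 1.44 TPM (-1.31, SE 0.21, adjusted p = 1.46e-05), and Crabp2 was listed at 0 in all SPF isotype libraries and at 2.27 ± 1.16 TPM in SPF aCD3. In GF, 1 passed, Rdh10, which makes retinaldehyde (-0.65, adjusted p = 0.0484), beside 7.08% of all genes. None of the 8 differed between GF and SPF isotype, and under aCD3 7 were higher in GF, beside 48.9% of all genes, and 3 after scaling, beside 16.0%, Rara among these (0.47).

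Of 17 other integrin and adhesion genes tested, 10 passed after aCD3 in SPF, 2 higher and 8 lower (4 and 6 after scaling), no larger a share than the 64.8% of all genes, led by Cd226, a co-stimulatory adhesion receptor, which fell from 57.3 ± 9.12 to 7.24 ± 0.512 TPM (-2.81). In GF 2 of 16 passed, near the 7.08% of all genes, with Itga5 left out as it met the filter through GF isotype: Itgb1 (-0.59) and Icam1 (-0.56; -0.40 and not called after scaling) fell. Itgb2, the β2 chain, was higher in GF than in SPF isotype (0.49, adjusted p = 0.000648), also after scaling (0.33). Between the aCD3 groups 10 of 17 differed, near the 53.3% of all genes, 8 higher and 2 lower in GF (4 and 4 after scaling), with Cd226 at 2.25. Of 14 genes that activate integrins from within the cell, 9 passed in SPF, again near 64.8%, 1 higher and 8 lower, a split that scaling turned to 5 higher and 4 lower; Rasgrp1 (-2.20) and Apbb1ip, the gene of RIAM (-1.44), fell under both. In GF Rasgrp1 alone of 14 passed (-0.87), a share at the 7.08% of all genes. In GF against SPF isotype Rap1b alone passed (0.27, not called after scaling), a share at the 7.17% of all genes, and 9 of 14 differed under aCD3, beside the same 53.3%, 8 higher and 1 lower in GF (3 and 3 after scaling), among them Rasgrp1 (1.37) and Rasgrp2 (-1.06).

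The next list holds enzymes that decorate PSGL-1. Of 12 tested, 8 passed after aCD3 in SPF, near the 64.8% of all genes, 2 higher and 6 lower, a split that scaling turned to 6 higher and 3 lower. Gcnt1, which builds the core branch needed for selectin binding, rose from 12.1 ± 1.36 to 46.8 ± 4.42 TPM (1.87, SE 0.33, adjusted p = 4.52e-05), and St3gal6, a sialyltransferase, fell from 16.5 ± 3.69 to 3.42 ± 0.496 TPM (-1.96, SE 0.28, adjusted p = 5.24e-06). The same genes were called in GF, Gcnt1 at 1.03 (adjusted p = 0.0484) and St3gal6 at -0.83 (adjusted p = 0.0496). Chst2 was higher in GF than in SPF isotype (0.82, adjusted p = 0.0232; 0.66 and not called after scaling). Between the aCD3 groups 8 differed, beside 53.3% of all genes, 7 higher in GF with St3gal6 at 1.08, and 1 lower, Gcnt1 (-0.86); after scaling 1 was higher and 2 lower.

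Downstream of the receptors, 19 of 26 G protein and motility genes passed after aCD3 in SPF, 6 higher and 13 lower, or 14 higher and 10 lower after scaling, beside 64.8% and 60.0% of all genes. The regulators that end G protein signals moved both ways: Rgs16 rose from 5.90 ± 2.37 to 24.96 ± 5.86 TPM (1.95), and Rgs1, which damps chemokine responses, fell from 4583 ± 749 to 1518 ± 150 TPM (-1.58). Both were called in GF as well, Rgs16 at 1.47 and Rgs1 at -0.60 (adjusted p = 0.0484 and 0.0481). In GF isotype 6 of 26 were higher than in SPF isotype, Rac2 (0.29) and Rgs19 (0.28) among them, beside 6.42% of all genes higher, and 0 after scaling. Under aCD3 14 were higher and 0 lower in GF, beside 48.9% of all genes higher, which became 4 higher and 9 lower after scaling, with Dock8 (0.90) and Dock2 (0.83) called higher under both. Of 14 ligands and ligand-making enzymes only 5 were tested, each with fewer than 6 libraries of one treatment at 1 TPM, so no calls are given. Vcam1 was at 2.505 ± 0.432 TPM in SPF isotype and 0.267 ± 0.0655 TPM in SPF aCD3. Ccl25, the ligand of CCR9, was near or under 1 TPM on average in all 4 groups, the highest mean being 1.14 ± 1.03 TPM in GF isotype.

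Across the 28 libraries the 9 genes varied together only in part, given here as Pearson's r of log2(TPM + 1) with group means subtracted, a description over libraries that share runs and depth. The split within GF aCD3 and the runs within GF isotype remain in these values, so each is followed by r over the 22 libraries outside GF aCD3, and by r there with run means subtracted too, both added after seeing the data. For Ccr9 and Cxcr4, r was -0.86, then -0.79 and -0.64. Ccr9 and Itga4 gave 0.78, 0.61 and 0.51, and Itga4 and Selplg 0.73, 0.63 and 0.70. Other pairs moved more: Ccr9 and Gpr183 went from 0.57 to -0.03 and 0.30, Ccr9 and Itgb7 from 0.63 to 0.26 and 0.51, Cxcr6 and Gpr183 from 0.70 to 0.45 and 0.26, and the 2 chains of α4β7 from 0.42 to -0.02 and 0.06. For Gpr15 no r with the other 8 lay outside -0.26 to 0.02 over all libraries, but r with Cxcr4 was then -0.51 and -0.29, with Ccr9 0.20 and -0.11, and with Cxcr6 -0.11 and 0.37.

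The genes most like each of the 9, among 7580 with a mean of at least 5 TPM and no provisional name, were found by the same r over 28 libraries without subtracting group means. Ccr9 was closest to Xrn1 and Pik3c2a (0.97 for both), Cxcr4 to Taf1d (0.92) and Nfil3 (0.91), Itga4 to Ppp2r5c (0.93) and Ngly1 (0.89), and Selplg to Sp100 (0.87) and Dazap2 (0.85). Ccr2 was closest to Klre1 (0.85) and Socs2 (0.82), Itgb7 to Cd7 (0.77) and Snora68 (0.64), and Gpr15 to Emp1 (0.76) and Il22 (0.74). Cxcr6 was closest to Fyco1 (0.96) and Pim2 (0.90), and Gpr183 to Tnfrsf10b and Ubac2 (0.92 for both), and Fyco1 and Ubac2 are the genes that Cxcr6 and Gpr183 lie in and may share reads with. With group means subtracted, which leaves the split within GF aCD3 in, the closest were Pik3c2a for Ccr9 (0.93), Flna for Cxcr4 (0.92), Ppp2r5c for Itga4 (0.92), Naa60 for Selplg (0.90), Klre1 for Ccr2 (0.85), Prag1 for Itgb7 (0.81), Mvb12a for Gpr15 (0.61), Fyco1 for Cxcr6 (0.92) and Cep170 for Gpr183 (0.90).

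**Figure D5:**
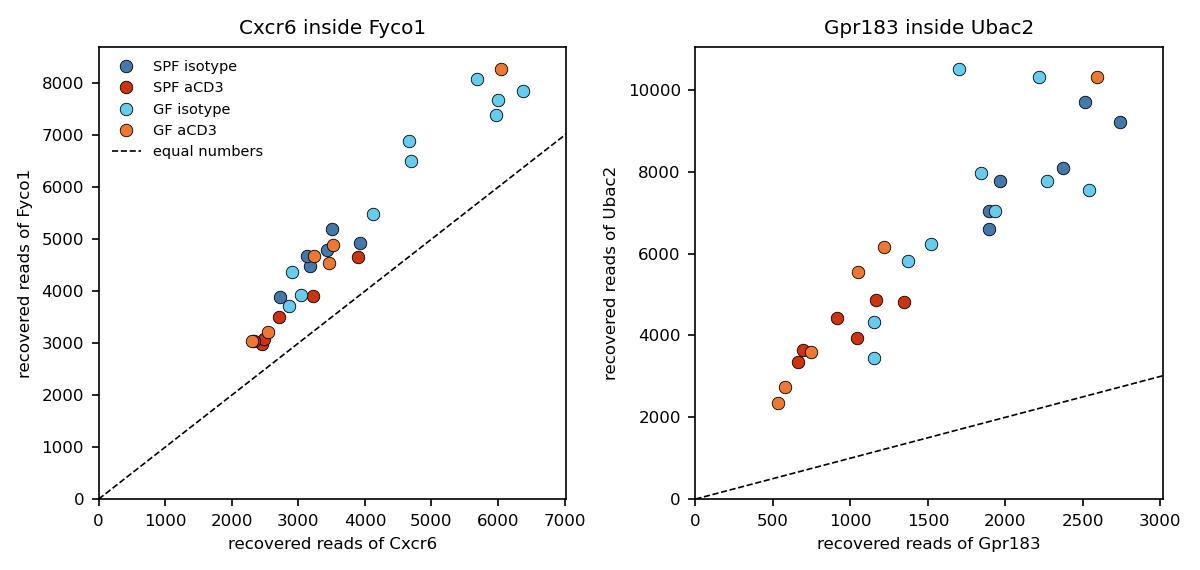
Recovered reads per library of Cxcr6 (left, x axis) against Fyco1 (y axis), and of Gpr183 (right) against Ubac2, with points coloured by group and a dashed line of equal numbers. All 28 libraries lie above the line, Fyco1 at 1.19 to 1.51 times Cxcr6 and Ubac2 at 2.98 to 6.18 times Gpr183.

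Itga4 also overlaps another gene, Cerkl on the other strand (chr2:79332491-79428988), by 624 bases of its end. The other 6 genes overlap no other row of the table.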

How the data were processed

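The authors deposited TPM values, made per the file headers with HOMER's analyzeRepeats.pl over RefSeq transcripts of mm10 with transcripts of a gene condensed. Aligner settings and the use of strand are not given in the sources used here. The submitters' processing notes also name Cell Ranger 7.1.0, R 4.4.2 and Seurat 5.1.0, with no role. Labels name both a total RNA kit and polyA RNA, which was not settled. The table holds 26 further columns of other samples, not used.

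TPM times length was a whole multiple of a step in 100% of low values checked (tolerance 0.1), which gave reads per gene. TPM sums ran from 679994 to 786003. Genes reaching 1 TPM in 6 or more libraries entered limma 3.58.1 (R 4.3.3, trend, pseudocount 1, group means and a sex term, 28 libraries), adjusted by Benjamini-Hochberg over 12182 genes; fold changes on this scale understate low genes. The fit was tested on simulated data. Python 3.11.15, NumPy 2.4.6, pandas 2.3.3 and matplotlib 3.10.9 were used. Motifs were searched on both strands of the 250 bases before each start.

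Reported are the 9 genes, per list the 2 called genes with the largest fold change in each of the first 4 comparisons, and the 2 genes nearest each of the 9. A few genes that this rule or the lists name are not reported here. Members and lists were chosen with earlier results of these data known. Alternatives were other pseudocounts and filters, median of ratios, quantile, voom on recovered reads, only the groups compared, no sex term, array weights, the replicate block, the run, and each library left out.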

Additional observations from a re-analysis of the deposited data

Results flagged for a closer look

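Ccr2 in GF aCD3 library M3 was at 89.28 TPM, far above the other 5 libraries of its group, which ran from 62.1 to 71.7 TPM. Selplg in SPF isotype library F3 was at 171.9 TPM, below the other 5 of its group, the highest of which was at 229 TPM. In 36 sets of gene and group checked for a value far from the others, 2 had one, and chance gives about 1.8.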

How the results depend on the processing

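Under settings other than leaving out a library, 535 values of single genes kept direction and side of the threshold, 40 changed sign with no call either way, 23 gained a call, 25 lost one and 10 turned direction; leaving out a library gave 942, 34, 8, 24 and 0. By median of ratios, the change after aCD3 in SPF turned to 0.11 for Cxcr6, 0.33 for Itga4 and 0.41 for Selplg, and GF against SPF under aCD3 turned to -0.28 for Itga4 and -0.38 for Selplg. Voom on recovered reads gave 0.11, 0.34, 0.41, -0.28 and -0.38 for the same. In the interaction 3 genes passed by either in place of 0. In GF against SPF isotype 1 passed in place of 2 by median of ratios, quantile normalization and voom (Gpr15 in each), and 1 with the later run alone, where Gpr15 and Cxcr6 lost their call and Cxcr4 gained one. In GF against SPF aCD3, 2 passed with array weights in place of 4: Gpr15, and Itgb7, which gained a call (-0.37, adjusted p = 0.0445), while Ccr9 (adjusted p = 0.167), Cxcr6 (0.0854) and Cxcr4 (0.0504) lost theirs. After aCD3 in GF the 1 call (Gpr183) became 0 with a pseudocount of 0.1, without the low-value filter, with only the groups compared and within each run, 2 without the sex term or with the run as a term, and 3 with array weights. Leaving out 1 library gave 0 to 4 there.

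Shared replicate names did not pair the libraries: of 32 same-named pairs 5 had a correlation of deviations over 0.1 (-0.208 to 0.198). With the replicate block, 0 genes passed after aCD3 in GF (Gpr183 -0.72, adjusted p = 0.065), and Ccr9 lost its call in GF against SPF aCD3 (0.46, adjusted p = 0.0618); it changed no other call of the 9. Gpr15, at 7 to 113 reads a library, has the fewest reads of the 9. Causes of these shifts were not tested.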
